A study of Mus musculus with 3 samples.

Results

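The 10 genes described here are Isyna1, Impa1, Impa2, Inpp1, Impad1, Slc5a3, Slc2a13, Cds1, Cds2 and Cdipt. All but Impad1, a related phosphatase, make, recycle and take up inositol or build it into phosphatidylinositol. The 10 genes were found as the probes of the scanner files whose gene name is one of these symbols. This gave 13 of the 55680 probes measured, for 10 of 22328 genes. Impad1 is listed as Bpnt2 in RefSeq. All 10 genes had a probe well above background on all 3 arrays, so each of them entered every comparison.

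Cerebral cells of C57BL6/J mouse embryos, taken at embryonic day 18, were cultured in a neuronal medium (neurobasal with B27) and exposed on day 10 in vitro for 24 h. The valproate culture received 1 mM valproate, the lamotrigine culture 100 µM lamotrigine and the control culture the solvent alone, and all of them, the drug cultures included, contained 0.1% DMSO. Each culture gave 1 Cy3-labelled RNA sample on 1 Agilent array, so the design has 1 array per treatment, no spread between cultures could be measured, and no test was possible; with so few arrays the precision is low. The labels describe lamotrigine as part of work on antiepileptic drugs, outside the study of histone deacetylase inhibition for which valproate was used.

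Inositol is the sugar alcohol at the head of phosphatidylinositol, a membrane lipid. Receptors that activate phospholipase C split its phosphorylated form into inositol trisphosphate, which releases calcium, and diacylglycerol. Phosphatases then strip the inositol phosphates to free inositol, and Cds and Cdipt enzymes rebuild the lipid. Cells also make inositol from glucose phosphate through Isyna1 or import it. Lithium inhibits the monophosphatases and Inpp1, and it has been proposed that mood stabilisers, valproate among them, act by depleting inositol.

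Levels are given as scaled signal: each array's signals were divided by their 75th percentile, which was set to 100. Levels of different probes are not comparable, since each probe hybridises with its own efficiency. A gene with several probes was represented by the one with the highest mean level, and a difference of 1.5-fold or more was used to count members, with no test behind it. A technical SD stands beside the differences. It comes from those of the 399 probes printed 10 times on each array that were well above background there. It covers spots of 1 array only, not cultures, RNA extraction or labelling. For a probe printed 10 times it is that of a mean over its spots.

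The sequences that carried the measurements are shown for the members on which the results turn, Cds1 and Inpp1 with 1 probe and Slc5a3 with a probe pair that gave different values. They are read from the scanner files, 5′ to 3′, and no base is marked. Each probe is 60 bases long, and of the Cds1 probe and the single-spot probe of Slc5a3 the first 30 bases are given.
Slc5a3, printed 10 times, chr16:92079366-92079425 (+ strand, mm9): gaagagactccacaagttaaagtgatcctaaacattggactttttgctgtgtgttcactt
Slc5a3, printed once, chr16:92087281-92087340 (+ strand, mm9): ggcttcagtttcaaagaaaatagaatttga
Cds1, chr5:102252307-102252366 (+ strand, mm9): gcgagttctttaacaacaacactctagtaa
Inpp1, chr1:52846769-52846828 (- strand, mm9): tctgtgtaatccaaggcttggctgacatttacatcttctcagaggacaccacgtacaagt

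With valproate, Cds1, which makes the activated lipid used for phosphatidylinositol synthesis, was 1.66-fold higher than with DMSO, and the inositol importer Slc5a3 was lower on both of its probes, 1.30-fold on 1 and 1.85-fold on the other. The monophosphatase Impa2 was 1.38-fold higher and the phosphatase Inpp1 1.31-fold lower. The synthase Isyna1, the monophosphatase Impa1, Impad1 and Cds2 lay within 2 technical SDs of the DMSO array. By its representative probes, 1 member was at least 1.5-fold higher, against 6.25% of the 14346 genes detected on both arrays, and 0 were at least 1.5-fold lower, against 5.95%. The median log2 difference of the 10 members was -0.03, beside -0.08 over all genes. Above 0 lay 5 members and below it 5, while 39.3% of all genes lay above 0. With spike-in scaling 8 members lay above 0 and 2 below, and the median of all genes was 0.27. With a threshold of 25% of the lower value in place of 1.5-fold, 2 members were higher (13.4% of genes) and 2 lower (19.4%), and at 2-fold 0 were higher (2.09%) and 0 lower (1.42%).

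**Figure D1:**
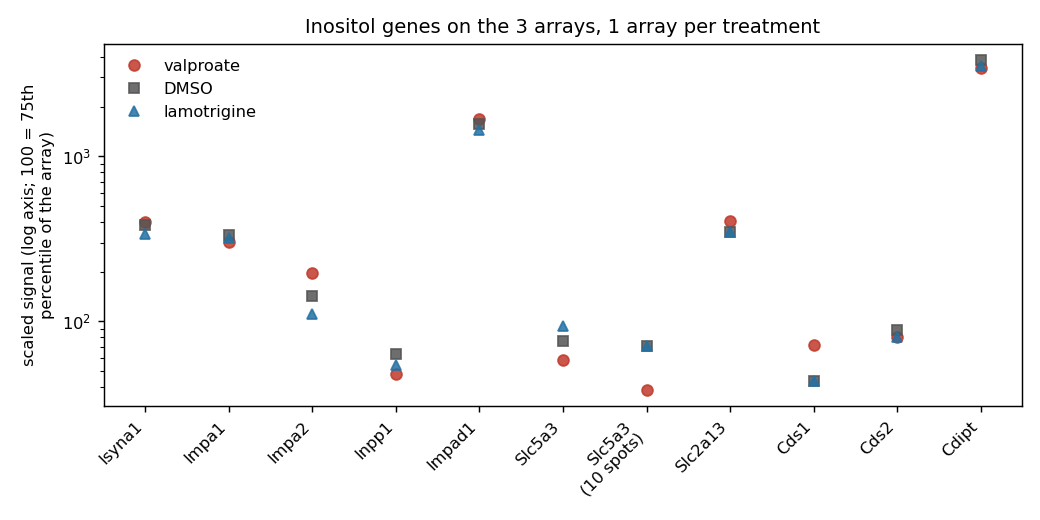
Scaled signal (log axis) of each member's probes detected on all 3 arrays, 1 point per array; Slc5a3 appears with both of its probes. The valproate point lies clear above the others for Impa2 (198) and Cds1 (72.2) and clear below for both probes of Slc5a3 (58.5 and 38.7); points of different probes are not comparable in level.

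Isyna1 (probe at chromosome 8, 73121065 to 73121124 on mm9) is the only enzyme of the set that makes inositol anew, by turning glucose phosphate into inositol phosphate. Its scaled signal was 400 with valproate, 382 with DMSO and 337 with lamotrigine. The valproate and DMSO arrays were close, and the lamotrigine array was the lowest. The log2 difference was 0.07 for valproate against DMSO (technical SD 0.08), -0.18 for lamotrigine against DMSO (0.09) and 0.25 between the drugs (0.08). With the spike-in scaling described below, the lamotrigine difference is 0.02.

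Of the monophosphatases, which free inositol from its monophosphate and are inhibited by lithium, Impa1 (chromosome 3, 10314007 to 10314066, minus strand) had 304 with valproate, 335 with DMSO and 321 with lamotrigine. These arrays lay close together, with log2 differences of -0.14 and -0.06 from DMSO for valproate and lamotrigine, both within 2 technical SDs. Impa2 (chromosome 18, 67478382 to 67478441), the second enzyme of this kind, had 198 with valproate, 143 with DMSO and 112 with lamotrigine. Its order, valproate above DMSO above lamotrigine, had steps of 0.47 (6.0 technical SDs) and 0.36 (4.2 technical SDs) on the log2 scale. On this scale no other member had DMSO between the drugs with both steps that wide. With spike-in scaling Impa2 is at 0.82 with valproate and at only -0.15 with lamotrigine, against DMSO. Impa2 was 1.77-fold higher with valproate than with lamotrigine, a log2 difference of 0.82, and 3.31% of the 14544 genes detected on both of those arrays lay as far or farther on that side. Against DMSO it did not reach 1.5-fold with either drug, and 8.73% of genes lay at least as high with valproate and 4.02% at least as low with lamotrigine.

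Inpp1, which removes a phosphate from inositol bisphosphate upstream of the monophosphatases and is also inhibited by lithium, had 48.2 with valproate, 63.1 with DMSO and 54.8 with lamotrigine. DMSO was the highest of the arrays and valproate the lowest. The log2 difference was -0.39 for valproate against DMSO (technical SD 0.11, 3.4 times that SD) and -0.20 for lamotrigine against DMSO (1.7 times). It shrinks to -0.04 with spike-in scaling. Impad1 (chromosome 4, 4691556 to 4691615, minus strand), a Golgi phosphatase of the same family that acts on the by-product of sulfation reactions, had 1691 with valproate, 1577 with DMSO and 1438 with lamotrigine. The arrays lay in the same order as for Impa2, but with steps of 0.10 and 0.13, and with spike-in scaling lamotrigine lies above DMSO (0.07).

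The transporters differed from each other. Slc5a3, the sodium-coupled importer that cells also use to gather inositol against osmotic stress, is the member with the most direct technical replication, since 1 of its probes was printed 10 times on each array. On the valproate array these spots ranged from 35.4 to 42.2, with a median of 38.3. On the DMSO array they ranged from 66.3 to 79.4, with a median of 70.4, and 3 of them were marked as outlier spots and left out of the level. On the lamotrigine array they ranged from 67.6 to 76.1, with a median of 71.1. All 10 valproate spots lay below all 10 spots of each other array, while the DMSO and lamotrigine spots overlapped. The spots are repeats of 1 RNA sample, so this separation speaks of the arrays and not of the treatments.

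**Figure D2:**
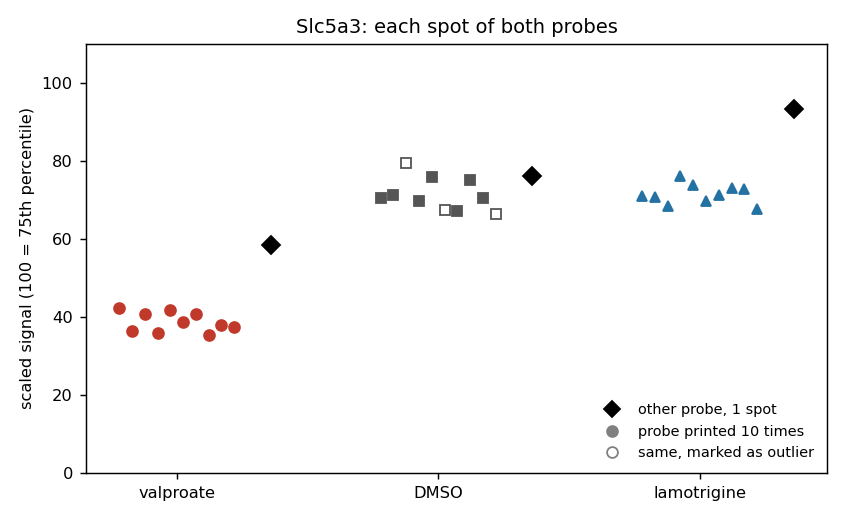
Scaled signal of every spot of the 2 Slc5a3 probes on each array; open points were marked as outlier spots, and the order of points within an array has no meaning. The 10 valproate spots of the repeated probe lie between 35.4 and 42.2, under all DMSO spots (66.3 to 79.4), while the single-spot probe has 58.5, 76.1 and 93.2.

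The repeated probe gave a log2 difference of -0.88 for valproate against DMSO (1.85-fold lower, technical SD 0.04), and 2.06% of genes lay as low or lower. For lamotrigine against DMSO it gave 0.00 (technical SD 0.04). The other probe is listed under the same transcript, and its target lies 7915 bases farther along the chromosome. It had 58.5 with valproate, 76.1 with DMSO and 93.2 with lamotrigine, or -0.38 and 0.29 against DMSO. Both probes put valproate lowest, but they disagree on its size and on lamotrigine. Because the second probe had the higher mean level, it represents the gene in the counts. With the repeated probe in its place the members at least 1.5-fold lower with valproate become 1, against 5.96% of genes. With spike-in scaling the valproate difference was -0.53 on the repeated probe and -0.03 on the other.

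Slc5a3 shares its start with Mrps6, a mitochondrial ribosomal protein gene whose annotated RefSeq start lies 14 bases downstream on the same strand and whose locus overlaps it. Mrps6 had 2996 with valproate, 3856 with DMSO and 3601 with lamotrigine, a log2 difference of -0.36 for valproate against DMSO and of -0.10 for lamotrigine. With spike-in scaling the valproate difference of Mrps6 is -0.01. Both genes were lowest with valproate, Mrps6 by about as much as the single-spot probe of Slc5a3 and by less than its repeated probe (-0.88). Any part of the shared start in these values was not tested. The sequence of 250 bases upstream of the Slc5a3 start, which they have nearly in common, is shown. It is taken from RefSeq on GRCm38.p6, a build other than that of the probes.
Slc5a3 promoter, chr16:92058072-92058321 (+ strand, GRCm38.p6): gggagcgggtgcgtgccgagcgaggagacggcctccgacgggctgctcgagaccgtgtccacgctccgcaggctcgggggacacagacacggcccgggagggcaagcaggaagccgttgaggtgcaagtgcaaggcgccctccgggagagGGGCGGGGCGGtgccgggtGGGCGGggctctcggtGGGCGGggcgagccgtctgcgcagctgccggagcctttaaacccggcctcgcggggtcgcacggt
The capitals mark the letters GGGCGG, the core of the GC box, or CCGCCC, its reverse complement. Counted on both strands, there were 4 matches, of which 2 overlap by 1 base, and 4.09% of 32851 RefSeq promoters of that length hold at least as many, while 32.7% hold at least 1. Of the 6 members matched to this table by symbol, Inpp1, Slc2a13 and Cds1 had 2 matches each, Isyna1 had 0, and the 2 starts of Cds2 had 1 and 0. Impa1, Impa2, Impad1 and Cdipt were not among the entries used here. A match describes letters and shows no binding.

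Slc2a13 (chromosome 15, 91098249 to 91098308, minus strand), a proton-coupled inositol importer found in neurons, had 408 with valproate, 350 with DMSO and 350 with lamotrigine. Valproate was the highest and the others were level, with log2 differences of 0.22 (technical SD 0.07) and 0.00 against DMSO. It and Slc5a3 thus lay on opposite sides of 0 with valproate. A second Slc2a13 probe, for another transcript, was not well above background on any array.

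In the last steps, which return inositol to the lipid, Cds1 had 72.2 with valproate, 43.5 with DMSO and 43.6 with lamotrigine. Valproate alone stood apart, at 0.73 above DMSO (technical SD 0.11, 6.4 times that SD) and 0.73 above lamotrigine, while lamotrigine against DMSO was at 0.00. At least as high with valproate were 4.20% of genes. With normexp background correction the Cds1 difference is 0.50, short of 1.5-fold. Cds2 (chromosome 2, 132130955 to 132131014), the other enzyme for the same reaction, had 80.7 with valproate, 88.7 with DMSO and 80.2 with lamotrigine, all within 2 technical SDs of each other. A second Cds2 probe, for another transcript, was near background, with 5.59, 6.28 and 7.06, and was not well above it on the DMSO array. Cdipt (chromosome 7, 134123776 to 134123835), which joins inositol to the activated lipid, had 3399 with valproate, 3801 with DMSO and 3539 with lamotrigine. DMSO was the highest, with log2 differences of -0.16 and -0.10, whose sign turns with quantile normalization, the authors' deposited table and spike-in scaling.

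**Figure D3:**
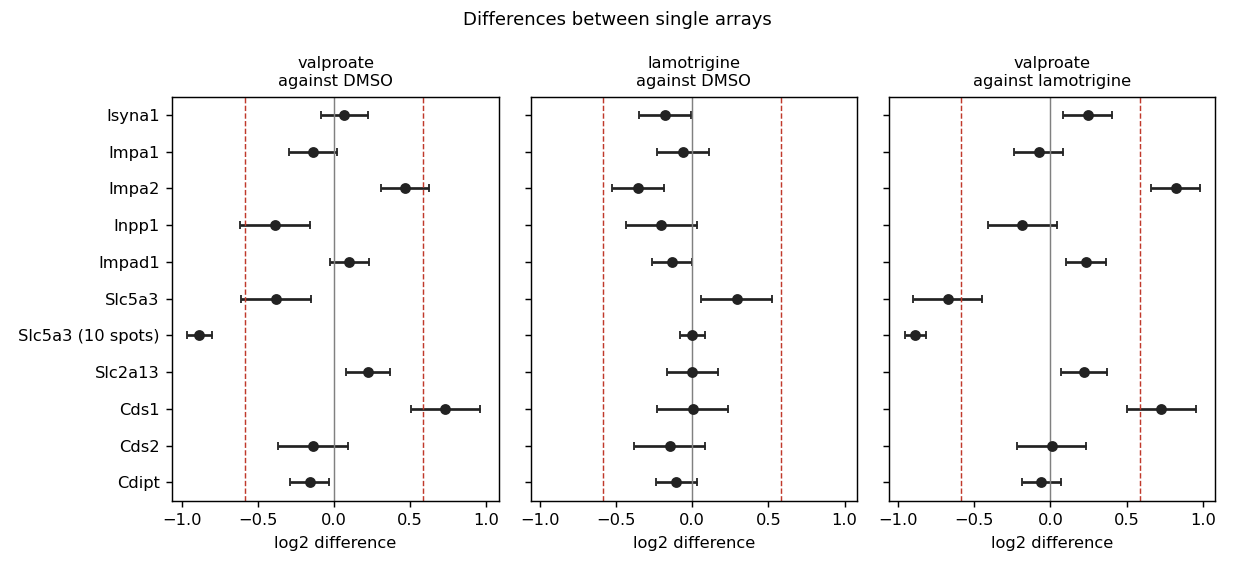
Log2 difference between single arrays for each member's probes, with bars of 2 technical SDs that leave out the spread between cultures; dashed lines mark 1.5-fold. Cds1 (0.73) and the repeated Slc5a3 probe (-0.88) lie beyond the lines for valproate against DMSO, none does for lamotrigine against DMSO, and between the drugs Impa2 (0.82) and the single-spot Slc5a3 probe (-0.67) lie beyond them as well.

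With lamotrigine, Isyna1, Impad1 and Cds2 lay farther from DMSO than with valproate, and the other members nearer. None of them was at least 1.5-fold higher (0, against 1.12% of the 14340 genes detected on both arrays) or lower (0, against 0.76%). Their median log2 difference was -0.12, beside -0.05 over all genes, with 7 members below 0 and 3 above, while 39.8% of all genes lay above 0. With spike-in scaling 2 were below 0 and 8 above, and the median of all genes was 0.16. With the 25% threshold, 0 members were higher (5.45% of genes) and 1 lower (5.6%), and at 2-fold 0 were higher (0.0976%) and 0 lower (0.0628%). The lowest was Impa2 at -0.36 and the highest Slc5a3 at 0.29. Beyond 2 technical SDs lay these 2 with Isyna1 (2.1 times the SD) and Impad1 (2.0 times). The share of all genes beyond that range was not counted, and the differences of all genes had an SD of 0.21. Both drug comparisons use the same DMSO array, so a high or low spot on it moves both.

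The comparison between the drugs leaves the DMSO array out. Impa2 (0.82) and Cds1 (0.73) were at least 1.5-fold higher with valproate than with lamotrigine, 2 members against 6.17% of genes, and Slc5a3 was lower (-0.67, and -0.89 on the repeated probe), 1 member against 5.84%. The median of the members was 0.12, beside -0.03 over all genes. The counts were the same with the 25% threshold (14.2% of genes higher and 15.8% lower), and at 2-fold 0 members were higher (2.06%) and 0 lower (1.69%). Of the rest, Isyna1 (0.25), Impad1 (0.23) and Slc2a13 (0.22) were higher by over 2 technical SDs, and Inpp1 (-0.19), Impa1 (-0.08), Cdipt (-0.06) and Cds2 (0.01) lay within that range.

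Impa2 had the widest range over the 3 arrays among the representative probes. The genes whose 3 log2 levels, each centred on its own mean, lay nearest to it were Gja4 (distance 0.02), Lurap1 and Gsdmd (0.03 each), and Gsx2 and Ppp1r16b (0.04 each). Gja4, a gap junction protein of vessels, had 28.7 with valproate, 21.2 with DMSO and 16.5 with lamotrigine. In all, 49 of the 13195 genes compared lay within 0.1 of Impa2, over only 3 points per gene. Gsdmd, Gsx2 and Ppp1r16b had scaled signals under 25 on every array, where the technical SD of a spot is 0.17 to 0.18. Distances this small are below that SD, so the order of these genes has no meaning.

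The genes around these members were read from 8 lists, which hold 103 further genes. Valproate and DMSO could be compared for 98 of them, and 7 had levels at least 1.5-fold higher with valproate (7.14%, against 6.25% of all genes) and 3 lower (3.06%, against 5.95%), and the median was -0.06. With lamotrigine 0 were higher (against 1.12% of all genes) and 2 lower (2.04%, against 0.76%). The list medians below are small: those of the osmotic and diacylglycerol lists change sign with quantile normalization, the deposited table and spike-in scaling, that of the inositol phosphate kinases with spike-in scaling, that of the phosphatases with spike-in scaling and the mean of probes, and that of the phosphatidylinositol kinases with normexp. The genes named from them kept their sign with valproate in all 9 alternatives run on them, except Nudt3 with spike-in scaling.

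Of 18 diacylglycerol kinases and genes of lipid supply, 3 were at least 1.5-fold higher with valproate and 0 lower, and the list median was -0.05. Diacylglycerol kinases turn the lipid left by phospholipase C into phosphatidic acid, from which Cds enzymes start. Dgkk had 227 with valproate, 56.3 with DMSO and 50.2 with lamotrigine, a log2 difference of 2.01 for valproate against DMSO. Dgka had 64.3, 31.4 and 35.7 in the same order (1.03, or 0.66 with normexp). Dgkg had 105, 59.3 and 29.1, so it was higher with valproate (0.83) and lower with lamotrigine (-1.02) than with DMSO, the same order as Impa2.

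Of 17 phospholipases C and inositol trisphosphate receptors, 16 could be compared, of which 2 had levels at least 1.5-fold higher with valproate and 0 lower, with a median of 0.06. Plcd3 had 166 with valproate, 61.7 with DMSO and 64.2 with lamotrigine (1.43), and its other probe gave 1.23. Plcg2, the isoform of blood cells and microglia, had 192, 74.2 and 79.0 (1.37), and Plcb3 was at 0.42. The valproate array alone was high for these genes.

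Among 20 phosphatases of inositol polyphosphates and phosphoinositides, 0 were at least 1.5-fold higher and 2 lower, with a median of -0.07. Inpp5d, known as SHIP1 in blood cells, was at -1.42 from a low level of 12.4 with DMSO, and was also lower with lamotrigine (-0.79). With normexp these differences are -0.66 and -0.41. Inpp5f was at -1.13, but its other probe was at 0.37. Fig4, a phosphatase of endosomal lipids, was at 0.56.

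Of 18 phosphatidylinositol kinases and subunits 17 were measured, 1 was higher and 0 were lower, with a median of 0.07. That gene was Pik3c3, the class III kinase of autophagy and endosomes, at 0.59, just past the 1.5-fold line, with 0.52 on its other probe and 0.45 with normexp; it passed the line in 7 of 9 alternatives. Pi4k2b was at 0.58 (0.27 with normexp) and Pi4kb at -0.50. None of the 13 measured inositol phosphate kinases and pyrophosphate enzymes reached 1.5-fold (0 higher, 0 lower, median -0.08). The farthest from 0 were the pyrophosphate kinases Ppip5k2 (-0.47) and Ip6k2 (-0.46) and the hydrolase Nudt3 (-0.33).

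**Figure D4:**
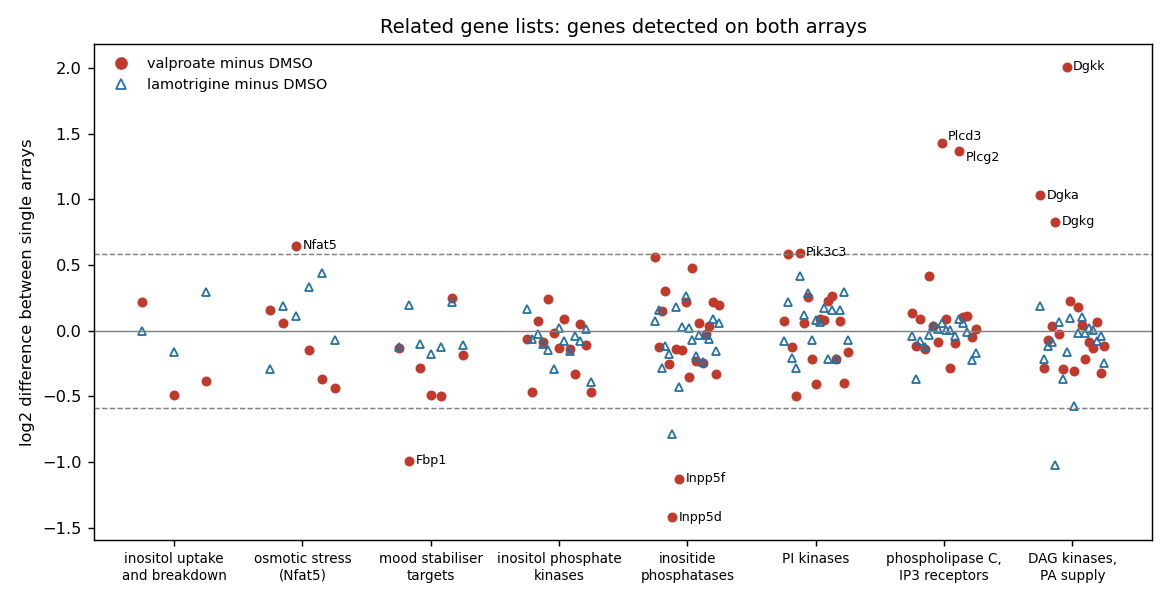
Log2 difference from the DMSO array for every gene of the 8 lists detected on both arrays, valproate as filled and lamotrigine as open points; dashed lines mark 1.5-fold, and the labelled genes pass it with valproate. Dgkk (2.01), Plcd3 (1.43) and Plcg2 (1.37) lie highest and Inpp5d (-1.42) lowest; both drugs are set against the same DMSO array.

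Relatives of the lithium-sensitive phosphatases and other proposed targets of mood stabilisers had a median of -0.28 over 7 measured genes, with 0 higher and 1 lower. Fbp1, a gluconeogenic phosphatase, was at -0.99, with 6.48 against 12.9, and at -0.59 with normexp. Pgm1, a phosphoglucomutase, and Gsk3b, the kinase inhibited by lithium, were both at -0.49, and the other probes of Gsk3b were at -0.33 and -0.16. The list median turns positive with spike-in scaling.

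Beside Slc5a3, the genes of the osmotic stress response under Nfat5 were mixed, with a median of -0.04 over 6, 1 higher and 0 lower. Nfat5 itself, the transcription factor that raises Slc5a3 under hypertonic conditions, was at 0.65 from a low level of 6.99, and at 0.05 with normexp correction. The taurine transporter Slc6a6 (-0.44) and the betaine transporter Slc6a12 (-0.37) lay below 0, as did Slc5a3. Slc5a11, a second sodium-coupled inositol transporter, was at -0.49 from 20.1 with DMSO. With spike-in scaling Slc6a12, itself at a low level of 8.82 with DMSO, is at -0.02.

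The cultures held several cell types, and in such mixed samples fewer cells of a type and less RNA per cell cannot be told apart. All 8 neuronal and all 8 astrocyte markers were detected on every array. The summed scaled signal of the astrocyte markers was 20774 with valproate, 40874 with DMSO and 40178 with lamotrigine. Such a sum adds probes of unlike efficiency, and Aldoc made up most of it, with 10073, 25995 and 25605; the other 7 markers summed to 10701, 14879 and 14573. At least 1.5-fold lower with valproate were 3 of the 8, Aqp4 (-1.62), Aldoc (-1.37) and Slc1a2 (-0.80, or -0.45 with spike-in scaling), while Gfap was at 0.06, or -0.09 by the mean of its probes. The neuronal sum was 22490, 29830 and 25983, with 2 of 8 lower and 1 higher. Over all genes, 5.95% were at least 1.5-fold lower with valproate than with DMSO and 6.25% higher. The oligodendrocyte lineage sum was 4155, 4630 and 4124. Most of it was Olig1, and the other 9 markers of that lineage summed to 1302, 1631 and 1369. Of its 10 markers, 9 could be compared between valproate and DMSO, with a median of -0.38. Below the 1.5-fold line lay 3, with Gpr17 (-3.75) and Sox10 (-0.75) farthest from 0, and above it only Mbp (0.60). Fibroblast markers summed to 6216, 8228 and 7342. Of 6 microglial markers 4 were detected on every array, Cx3cr1 and C1qa on none, and the 6 summed to 1609, 1460 and 1591. Most of this was Itgam, and the other 5 summed to 171, 196 and 193, with valproate lowest. Of 6 endothelial and mural markers 5 were detected with valproate and 3 on each other array, Cldn5 on none, and they summed to 856, 741 and 918. Most of this was Kdr, and the other 5 summed to 93.5, 75.9 and 78.5, with valproate highest. Among them Flt1 alone had 27.3 with valproate, against 3.93 with DMSO and 4.53 with lamotrigine, where it was not detected. That gap is wider than the gap between the sums. The astrocyte, neuronal and fibroblast sums were all lowest on the valproate array, as was Slc5a3. So were the oligodendrocyte and microglial sums once Olig1 and Itgam were left out. In the former, Gpr17 had 18.6 with valproate, 251 with DMSO and 178 with lamotrigine, a wider gap to lamotrigine than that of the sum. The sums were not set on the spike-in scale, which raises the marker medians for valproate against DMSO. There they are -0.15 for astrocytes, 0.13 for neurons, -0.02 for fibroblasts, -0.03 for the oligodendrocyte lineage and 0.35 for microglia. The part of these cell types in the Slc5a3 and Cds1 values was not tested.

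How far the scaling matters is seen when the arrays are set on 6 spike-in probes in place of the 75th percentile. This moves the median of all genes by 0.35 for valproate against DMSO and by 0.20 for lamotrigine against DMSO. On that scale Cds1 was at 1.08 and Impa2 at 0.82, both past 1.5-fold, Isyna1 at 0.42, Impad1 at 0.45 and Slc2a13 at 0.57, and Impa1, Cdipt and Cds2 turned positive for valproate, while Slc5a3 (-0.03) and Inpp1 (-0.04) remained below 0. The median of all genes lay at 0.27 there. This scaling adds the same amount to every gene of a comparison, so the order of the genes is that of the reported scale.

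**Figure D5:**
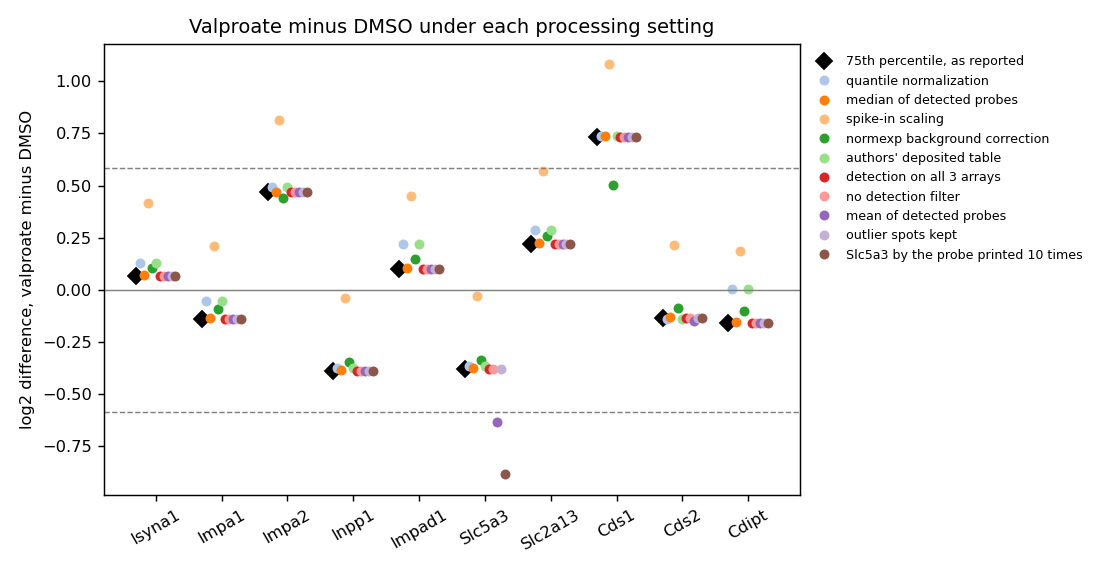
Log2 difference of valproate minus DMSO for each member under the reported 75th percentile scaling (black) and 10 alternatives, with dashed lines at 1.5-fold. Spike-in scaling lies highest for every member, and Slc5a3 spreads from -0.88 to -0.03 with the probe and the scaling chosen.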

How the data were processed

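RNA of 3 mouse cerebral cultures was measured on 1 Agilent array each, on a single slide. The intensity of every spot was read, background-subtracted and detrended within the array by Feature Extraction 10.7.1.1, per the file headers, and nothing was normalized between arrays. The authors' deposited table holds intensities that are quantile-normalized over the 3 arrays, as its values show, and was used as an alternative; its presence calls were not used.

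Each array has 62976 spots, of which 59305 are no controls. Processed signals were divided by the array's 75th percentile (478, 372 and 388 for valproate, DMSO and lamotrigine) and set on a log2 scale, outlier spots (82, 98 and 128) were left out, and spots of a probe were averaged. Between 49.6% and 52.9% of spots were well above background and 0 were saturated; genes detected numbered 15095, 14506 and 14821. Probes were tied to RefSeq symbols by accession (27235 probes), symbol (3581) or older symbol (565). Another 24300 matched no symbol and were left out of the genes compared. No genome of the probes' build was used, so their place in exons or UTRs is not given. A gene was compared where both arrays detected it. The median technical SD of a spot, on the log2 scale, was 0.17 to 0.18 under a scaled signal of 25, 0.08 up to 100 and 0.04 to 0.06 above. Spots and probes show the precision of an array, not of a treatment, so no p-value is given.

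The members and the 8 lists were chosen with earlier results of these data known. All members are named with every probe, with up to 3 genes per list farthest from 0 for valproate against DMSO and the 5 genes most like the member of widest range. Alternatives were quantile normalization, the median of detected probes, spike-in scaling, normexp (offset 50), the deposited table, outlier spots kept, the mean of probes, detection on all 3 arrays, no detection filter and other folds. Calculations used Python 3.11.15, numpy 2.4.6, pandas 2.3.3 and limma 3.58.1 under R 4.3.3, and were tested on simulated data.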

Additional observations from a re-analysis of the deposited data

How the results depend on the processing

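No paired analysis was possible because each treatment has 1 array, and for the same reason no replicate could be left out. In brackets beside each count of members stands the share of all genes under the same setting. For valproate against DMSO, the members at least 1.5-fold higher numbered 1 as reported (6.25%), 2 with spike-in scaling (17.9%) and 0 with normexp (3.31%). At 2-fold there were 0 (2.09%) and with a threshold of 25% of the lower value 2 (13.4%). The members lower numbered 0 as reported (5.95%), 1 with the mean of detected probes (5.86%) and 2 with the 25% threshold (19.4%). With Slc5a3 read from its repeated probe, a choice made after seeing the data, there was 1 (5.96%). The median moved from -0.03 to 0.0644 with quantile normalization, 0.0646 with the deposited table and 0.3148 with spike-in scaling. For lamotrigine against DMSO, 1 member was lower with the 25% threshold (5.6%), and the median moved from -0.12 to -0.0319, -0.0318 and 0.0841 with quantile normalization, the deposited table and spike-in scaling. Between the drugs, the 2 higher members (6.17%) became 1 with normexp (3.69%) and 0 at 2-fold (2.06%). The 1 lower member (5.84%) became 0 with spike-in scaling (3.66%), with normexp (3.17%) and at 2-fold (1.69%). The median between the drugs moved from 0.12 to 0.2630 with spike-in scaling. Spike-in scaling shifts every gene of a comparison and 2-fold is a stricter limit; the cause of the normexp and quantile differences was not tested. Over all genes, the 896 higher and 854 lower with valproate became 2575 and 249 with spike-in scaling, 475 and 490 with normexp and 2013 and 2381 with no detection filter. For lamotrigine 160 and 109 became 535 and 27, 14 and 18, and 1484 and 1157 in that order, and between the drugs 898 and 850 became 1442 and 533, 536 and 461, and 1835 and 2540. Among members, Cds1 stayed at least 1.5-fold higher with valproate than DMSO in 9 of 10 alternatives (0.50 to 1.08), and Impa2 stayed so between the drugs in 10 of 10 (0.75 to 0.97). Signal near background limits Nfat5, Slc6a12, Fbp1, Inpp5d and the second probes of Cds2 and Slc2a13.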
